A study of Mus musculus with 12 samples.

Results

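The genes described are *Per2*, *Per3*, *Ciart*, *Nr1d1*, *Tef* and *Klf9*, 5 genes of the circadian clock and 1 Krüppel-like factor, chosen by symbol in a table of liver expression values. All 6 were found among the 3799 genes of the table, and all 6 had the mean of 1 FPKM or more that the 3317 tested genes share. The series holds 4 groups of liver libraries, 3 in each, from male mice of the C57BL/6J strain, and the groups are called DOX + K35, DOX + K27, DOX and Saline. Treatment began at 8 weeks of age. Every group except Saline carried 2 intraperitoneal doses of doxorubicin, a DNA-damaging chemotherapy drug used here as a model of premature aging, of 10 mg/kg each and 1 week apart (days 0 and 7), and Saline mice had saline in its place. Dosing by gavage on alternate days started on day 2, with K35 at 50 mg/kg in one group, its analog K27 at the same dose in another and vehicle alone in DOX. The livers date from day 20. The labels call the Saline group vehicle, and no group received a compound without doxorubicin. The hour of the day at which the livers were collected is not given in the sources used here, and each liver was sampled once, so a shift in the phase of a rhythm and a change in its mean level cannot be told apart.

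In the liver, as in other tissues, the activators BMAL1 and CLOCK bind E-boxes and switch on the *Per* and *Cry* genes, whose proteins then inhibit that same pair. *Ciart* encodes CHRONO, a further repressor of BMAL1 and CLOCK, and *Nr1d1* encodes REV-ERBα, a nuclear receptor that represses *Arntl*, the gene for BMAL1. *Tef* encodes a PAR bZIP factor that binds D-boxes and passes the rhythm on to metabolic and detoxification genes, whereas *Klf9* encodes a zinc-finger factor that is both rhythmic and induced by glucocorticoids, the adrenal hormones that also reach the *Per* genes. The label of output genes therefore covers repressors inside the clock loop as well as factors downstream of it.

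On GRCm38 in the GENCODE M21 annotation, *Per2* lies at chr1:91415982-91459324 on the minus strand and *Per3* at chr4:151003652-151044665 on the minus strand. The *Per3* gene sits inside *Camta1*, a longer gene on the same strand, so its values are uncertain to the extent that reads of both genes were not separated. *Ciart* lies at chr3:95878503-95882251 on the minus strand, with the antisense gene *C920021L13Rik* over its whole length of 3749 bases. *Nr1d1* lies at chr11:98767932-98775333 on the minus strand and shares 1075 bases at its end with *Thra* on the other strand. *Tef* lies at chr15:81802421-81826863 on the plus strand and shares 193 bases with the antisense gene *Gm17597*. *Klf9* lies at chr19:23141226-23168134 on the plus strand. The sources do not state that the libraries kept strand, so reads of *Ciart*, *Nr1d1* and *Tef* cannot be told apart from reads of their antisense partners where these overlap.

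The promoters of 3 members are shown because they hold clock motifs. RefSeq promoter windows (GRCm38.p6, from 250 bases before to 50 after a transcript start) were matched for 5 of the 6 members, and *Tef* has 2 windows. Motifs were searched on both strands, and positions are counted backwards from -1, the base before the start. Capitals mark the D-box TTATGTAA in *Per3* and the E-box CACGTG in *Tef* and *Ciart*, which do not overlap each other. The *Per3* stretch is chr4:151044666-151044915 on the minus strand, the *Tef* stretches are chr15:81802534-81802563 and chr15:81811164-81811413 on the plus strand, and the *Ciart* stretch is chr3:95882252-95882478 on the minus strand.
Per3: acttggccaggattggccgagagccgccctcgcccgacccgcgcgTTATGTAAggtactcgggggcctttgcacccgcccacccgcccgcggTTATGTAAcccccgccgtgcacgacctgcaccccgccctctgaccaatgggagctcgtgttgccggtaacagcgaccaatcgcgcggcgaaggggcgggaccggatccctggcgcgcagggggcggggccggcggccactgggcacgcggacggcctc
Tef, first start: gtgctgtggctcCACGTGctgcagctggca
Tef, second start: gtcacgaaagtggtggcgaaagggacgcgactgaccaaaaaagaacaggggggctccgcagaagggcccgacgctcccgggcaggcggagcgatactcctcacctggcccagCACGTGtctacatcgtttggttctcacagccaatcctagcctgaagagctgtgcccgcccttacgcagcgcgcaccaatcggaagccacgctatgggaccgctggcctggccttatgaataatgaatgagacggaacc
Ciart: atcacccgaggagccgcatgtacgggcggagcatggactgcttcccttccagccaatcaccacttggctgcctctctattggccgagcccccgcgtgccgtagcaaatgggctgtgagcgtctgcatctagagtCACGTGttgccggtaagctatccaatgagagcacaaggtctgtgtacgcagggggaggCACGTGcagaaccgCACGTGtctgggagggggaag
The D-box occurred at -205 and -158 of *Per3*, and 0.938% of all 32851 windows hold this motif. The first *Tef* window lies wholly within a *Tef* exon of the GENCODE annotation, so the 30 bases shown from it are transcribed sequence there. An E-box stood at -127 of the first *Tef* window, at -138 of the second, and at -116, -58 and -44 of *Ciart*, against 7.15% of all windows. The related D-box TTACGTAA (0.119% of windows), the REV-ERB and ROR core TAGGTCA (2.61%) and the cAMP response element TGACGTCA (1.79%) had no match in the windows of the 5 members. The core AGAACA of the glucocorticoid response element, held by 19% of windows, matched once, at -209 of the second *Tef* window. The windows of *Nr1d1* and *Klf9* held none of the 6 motifs, and *Per2* was not in the promoter table.

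Some properties of the libraries bear on every value below. The table was selected by the authors and holds no counts, so the depth is unknown and percentages refer to the selected genes. The 13 mitochondrially encoded genes made up 48.2% to 61.9% of the summed FPKM in Saline, 62.2% to 83.3% in DOX, 37.9% to 48.7% in DOX + K35 and 50.01% to 68.0% in DOX + K27. Over all tested genes the median log2 fold change was -0.34 for DOX vs Saline, 0.46 for K35-treated vs DOX livers and 0.36 for K27-treated vs DOX livers. The DOX + K35 library C4 stood apart from the other 11, with *Sult1e1* at 349 FPKM against less than 4 elsewhere. All 5 hepatocyte markers in the table, of 9 listed, were above 0 in every library and summed to between 6446 and 15039 FPKM. Kupffer cell markers (6 of 9 in the table) summed to 73.4 to 202 FPKM in Saline, 18.5 to 53.0 in DOX, 53.1 to 84.3 in DOX + K35 and 53.9 to 97.0 in DOX + K27, and erythroid markers (4 of 5) to 330 to 506, 821 to 1135, 62.2 to 596 and 452 to 1072. Endothelial markers (2 of 5) summed to at most 9.20 FPKM and stellate cell markers (3 of 7) to at most 12.02 FPKM, and no marker in the table was at 0. Markers listed for lymphocytes, neutrophils, cholangiocytes and proliferating cells were not analysed here. The part of these differences in the results was not tested, and in bulk tissue fewer cells of a type and less RNA per cell cannot be told apart.

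**Figure D1:**
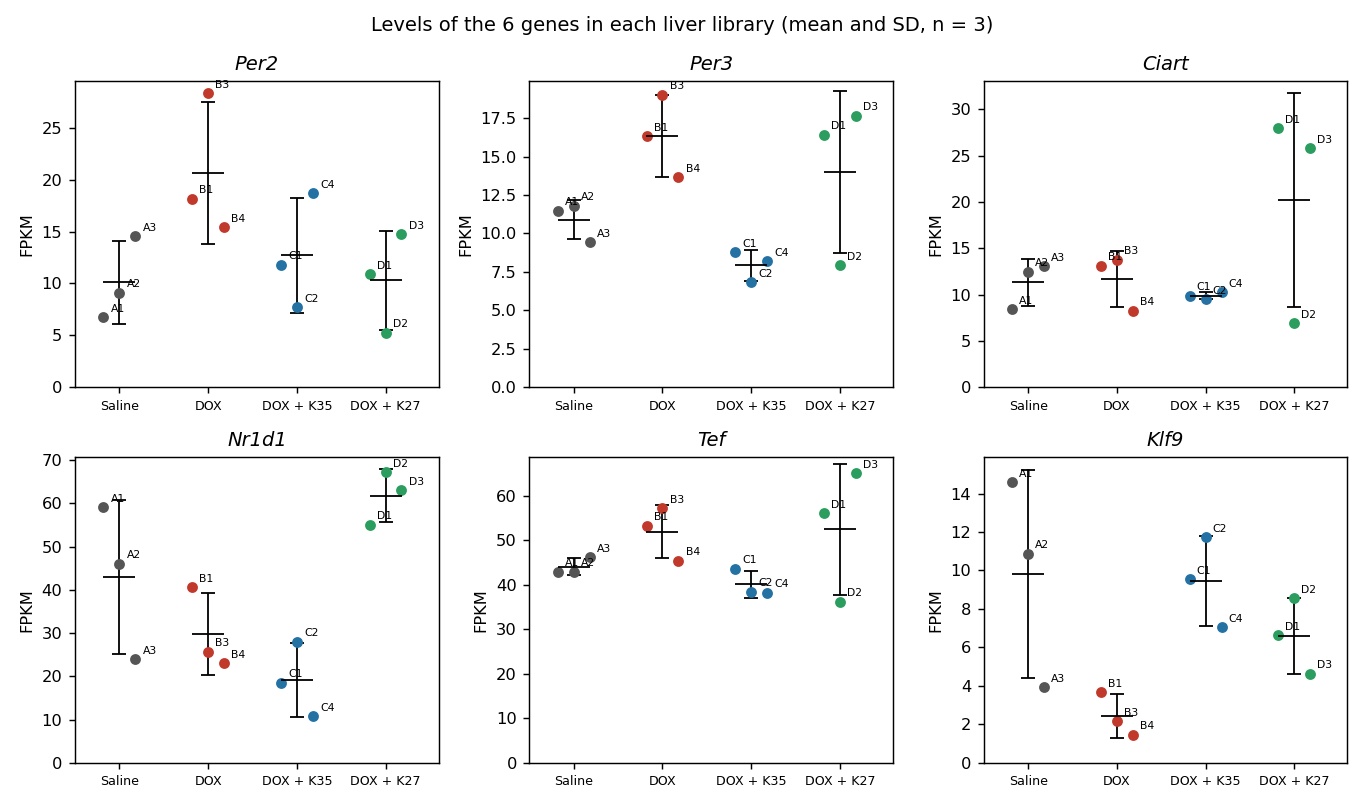
FPKM (vertical axes, from 0) of *Per2*, *Per3*, *Ciart*, *Nr1d1*, *Tef* and *Klf9* in each of the 12 libraries, by group, where each point is a library, the long bar the group mean and the whiskers 1 SD (n = 3). *Klf9* is at 1.46 to 3.66 FPKM in the DOX libraries, below all 9 others, *Nr1d1* is highest as a group in DOX + K27 at 55.1 to 67.2 FPKM, and library D2 is the lowest DOX + K27 library for *Per2*, *Per3*, *Ciart* and *Tef*.

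Among the members, only *Klf9* set the DOX libraries apart from all others. Other genes named below did so too, such as *Cry1*, *Nfil3*, *Fkbp5*, *Klf11*, *Angptl4*, *Por* and *H6pd*. *Klf9* stood at 14.6, 10.9 and 3.94 FPKM in Saline replicates 1, 2 and 3, and at 3.66, 2.17 and 1.46 FPKM in the DOX libraries B1, B3 and B4. It stood at 9.53, 11.7 and 7.06 FPKM in the DOX + K35 libraries C1, C2 and C4, and at 6.62, 8.55 and 4.62 FPKM in DOX + K27 replicates 1, 2 and 3. All DOX libraries lay below every library of the other groups, and Saline replicate 3 was the nearest to them. The group means ran from 9.80 ± 5.41 FPKM (SD, n = 3) in Saline through 9.44 ± 2.33 in DOX + K35 and 6.60 ± 1.96 in DOX + K27 to 2.43 ± 1.12 in DOX, and the first 3 overlapped one another.

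*Klf9* was higher in DOX + K35 than in DOX by a log2 fold change of 1.63 (SE 0.38, 95% interval 0.81 to 2.45, adjusted p = 0.00578 by limma), 3.88-fold in mean FPKM. The call stood in each fit without 1 library, at 1.42 to 1.88, and the value without library C4 was 1.81. With the 13 mitochondrially encoded genes left out and the libraries rescaled it was 1.40 (adjusted p = 0.0112). In DOX vs Saline the log2 fold change of *Klf9* was -1.55 (SE 0.38, 95% interval -2.37 to -0.73, adjusted p = 0.0612 by limma), which did not pass the threshold of 0.05. Without Saline replicate 3 it was -2.04 (adjusted p = 0.0158), in a fit that called 1189 genes in this comparison, against 6 with all libraries. Without DOX replicate 1 it was -1.80 (adjusted p = 0.00955). In DOX + K27 vs DOX the log2 fold change was 1.16 (95% interval 0.35 to 1.98, adjusted p = 0.155), and without DOX replicate 1 it was 1.41 (adjusted p = 0.0279). How many of all genes passed without DOX replicate 1 is not reported here, so these calls lack that background. DOX + K35 and DOX + K27 differed by 0.47 (95% interval -0.35 to 1.29, adjusted p = 0.352), an interval that includes both no difference and one of over 1 on the log2 scale.

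Across the 12 libraries *Klf9* was lower where the mitochondrial share was higher. The Pearson r of log2(FPKM + 1) with that share was -0.916 (permutation p = 9e-05, adjusted p = 0.000945 over 21 relations) and Spearman's rho was -0.900 (permutation p = 0.00014, adjusted p = 0.00231). Leaving out the 2 libraries farthest from the median share gave r = -0.798, and the deviations from the group means gave r = -0.844. This relation was not particular to *Klf9*, since 25.7% of the 3304 tested genes outside the mitochondrial genome, *Klf9* counted among them, had an r at least as low, and their median r was -0.45. For the other 5 members r ran from 0.02 in *Nr1d1* to 0.65 in *Per3*, and none passed an adjusted threshold of 0.05. The share was taken of the summed FPKM of the selected genes, which differed between libraries. FPKM values are scaled to the mapped reads of a library, which can include mitochondrial ones, so the share and *Klf9* may not be independent. The part of the share in the *Klf9* difference was not tested beyond the fit without the mitochondrial genes.

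*Per2*, the period gene with the strongest hold on the mouse clock, stood at 6.73, 9.09 and 14.5 FPKM in Saline and at 18.1, 28.3 and 15.4 FPKM in DOX. In DOX + K35 it stood at 11.8, 7.70 and 18.7 FPKM, and in DOX + K27 at 10.9, 5.25 and 14.7 FPKM. Every DOX library was above every Saline and every DOX + K27 library, while library C4 of DOX + K35 was above 2 of the 3 DOX libraries. The means ran DOX (20.6 ± 6.83 FPKM, SD, n = 3), DOX + K35 (12.7 ± 5.54), DOX + K27 (10.3 ± 4.77) and Saline (10.1 ± 3.99), and the last 3 overlapped. No difference of *Per2* passed the threshold. Its log2 fold changes were 0.98 for DOX vs Saline (95% interval 0.12 to 1.83, adjusted p = 0.0766 by limma), -0.69 for DOX + K35 vs DOX (-1.55 to 0.16, adjusted p = 0.152) and -0.99 for DOX + K27 vs DOX (-1.85 to -0.14, adjusted p = 0.156). Without Saline replicate 3 the first of these was 1.25 (adjusted p = 0.0424), in a fit that called 1189 genes there, against 6 with all libraries.

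*Per3*, the period gene that is dispensable for the core loop, had the tighter groups of the pair. Its values were 11.5, 11.8 and 9.44 FPKM in Saline, 16.3, 19.0 and 13.7 FPKM in DOX, and 8.78, 6.81 and 8.19 FPKM in DOX + K35. In DOX + K27 it stood at 16.4 and 17.7 FPKM in replicates 1 and 3 but at 7.94 FPKM in replicate 2. The DOX libraries were above all Saline libraries, and the DOX + K35 libraries were below all Saline and all DOX libraries, so that the means ran DOX (16.3 ± 2.67 FPKM, SD, n = 3), DOX + K27 (14.0 ± 5.29), Saline (10.9 ± 1.28) and DOX + K35 (7.93 ± 1.01), with DOX + K27 overlapping every other group. *Per3* was lower in DOX + K35 than in DOX by a log2 fold change of -0.95 (SE 0.29, 95% interval -1.57 to -0.33, adjusted p = 0.0127 by limma), 0.485-fold in mean FPKM. The adjusted p was 0.0516 without DOX library B3 and 0.0519 without DOX + K35 replicate 2. The difference was 0.54 in DOX vs Saline (95% interval -0.08 to 1.16, adjusted p = 0.153) and -0.42 in DOX + K35 vs Saline (-1.04 to 0.20, adjusted p = 0.458).

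*Ciart* stood at 8.42, 12.5 and 13.1 FPKM in Saline, 13.1, 13.8 and 8.24 FPKM in DOX and 9.87, 9.52 and 10.3 FPKM in DOX + K35. In DOX + K27 it stood at 27.9 and 25.8 FPKM in replicates 1 and 3, the highest values of the series, and at 6.88 FPKM in replicate 2, the lowest. The group means of 20.2 ± 11.6 FPKM (SD, n = 3) in DOX + K27, 11.7 ± 3.02 in DOX, 11.3 ± 2.53 in Saline and 9.88 ± 0.374 in DOX + K35 all overlapped. No comparison of *Ciart* passed the threshold, the widest difference being that of DOX + K35 vs DOX + K27 with a log2 fold change of -0.75 (95% interval -1.63 to 0.13, adjusted p = 0.215 by limma). Without DOX + K27 replicate 2 that value was -1.36.

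*Nr1d1* had its highest and most even values in DOX + K27, at 55.1, 67.2 and 63.1 FPKM. It stood at 59.1, 46.1 and 24.0 FPKM in Saline, at 40.6, 25.7 and 23.1 FPKM in DOX and at 18.6, 28.0 and 10.8 FPKM in DOX + K35. The DOX + K27 libraries were above all DOX and all DOX + K35 libraries but overlapped Saline replicate 1, and the mean of 61.8 ± 6.14 FPKM (SD, n = 3) was followed by 43.1 ± 17.8 in Saline, 29.8 ± 9.43 in DOX and 19.1 ± 8.60 in DOX + K35, of which neighbouring groups overlapped. *Nr1d1* was lower in DOX + K35 than in DOX + K27, its analog at the same dose, by a log2 fold change of -1.73 (SE 0.39, 95% interval -2.57 to -0.89, adjusted p = 0.0371 by limma), 0.310-fold in mean FPKM. It was the only member for which the 2 compounds differed past the threshold. The call was lost in 7 of 12 fits without 1 library, among them the one without library C4 (-1.39, adjusted p = 0.0583), and the log2 fold change ran from -2.04 to -1.39 over the 12.

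Against DOX the log2 fold change of *Nr1d1* was 1.06 in DOX + K27 (95% interval 0.22 to 1.91, adjusted p = 0.155 by limma) and -0.67 in DOX + K35 (-1.51 to 0.18, adjusted p = 0.161), or -0.33 without library C4. Without DOX replicate 1, the highest DOX library of this gene, the first value was 1.30 (adjusted p = 0.0333), in a fit whose calls among all genes are not reported here. Against Saline it was -1.13 in DOX + K35 (-1.97 to -0.29, adjusted p = 0.219), 0.60 in DOX + K27 (-0.24 to 1.44, adjusted p = 0.898) and -0.47 in DOX (-1.31 to 0.37, adjusted p = 0.346). The last of these turned to 0.15 under quantile normalization and to 0.10 once the 20 highest genes were removed.

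*Tef* had group means that lay close together. It stood at 42.9, 42.9 and 46.2 FPKM in Saline, 53.3, 57.1 and 45.4 FPKM in DOX, 43.6, 38.4 and 38.2 FPKM in DOX + K35 and 56.0, 36.2 and 65.0 FPKM in DOX + K27. The 3 DOX + K35 libraries lay below the 3 DOX libraries, the lowest DOX + K27 library was again replicate 2, and the remaining groups overlapped. Means were 52.4 ± 14.8 FPKM (SD, n = 3) in DOX + K27, 51.9 ± 5.99 in DOX, 44.0 ± 1.90 in Saline and 40.1 ± 3.06 in DOX + K35. The log2 fold change was -0.36 in DOX + K35 vs DOX (95% interval -0.98 to 0.26, adjusted p = 0.290 by limma) and 0.23 in DOX vs Saline (-0.39 to 0.85, adjusted p = 0.530).

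**Figure D2:**
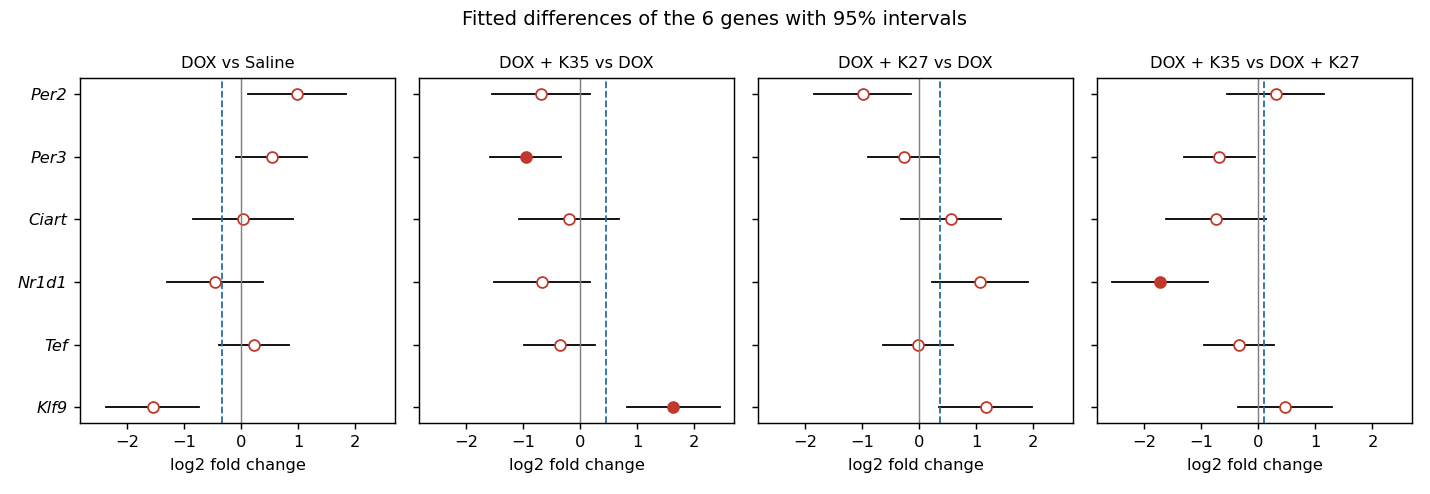
Log2 fold change (horizontal axis) of the 6 genes in 4 comparisons, with 95% intervals as bars, filled points where the adjusted p was under 0.05 and a dashed line at the median of all tested genes (-0.34, 0.46, 0.36 and 0.09 from left to right). The filled points are *Per3* at -0.95 and *Klf9* at 1.63 in DOX + K35 vs DOX, and *Nr1d1* at -1.73 in DOX + K35 vs DOX + K27.

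Read against the whole table, 0 of 6 members passed the threshold in DOX vs Saline, where 0.181% of the 3317 genes did, 2 of 6 members and 47.4% of all genes had an unadjusted p under 0.05, and 3 members (*Per2* and *Per3* higher, *Klf9* lower) had groups that did not overlap against 35.3% of all genes. Between DOX + K35 and DOX 2 of 6 members passed against 56.8% of all genes. *Klf9* was 1 of 6 higher against 46.0%, *Per3* was 1 of 6 lower against 10.7%, and 3 members (*Per3* and *Tef* lower, *Klf9* higher) did not overlap against 59.7%. The share of members called there was below that of all genes. In DOX + K27 vs DOX 0 of 6 members passed against 0.0603% of all genes, 3 of 6 had an unadjusted p under 0.05 against 29.3%, and 3 (*Per2* lower, *Nr1d1* and *Klf9* higher) did not overlap against 18.6%. Between the 2 compounds *Nr1d1* was the 1 member past the threshold against 2.11% of all genes, and 1.69% were lower. It was also the 1 member whose groups did not overlap, against 49.5% of genes. Against Saline 0 of 6 members passed in DOX + K35 (0.181% of genes, by unadjusted p 1 of 6 members and 16.6% of genes) and 0 of 6 in DOX + K27 (0.121% of genes, by unadjusted p 0 of 6 members and 5.94% of genes). The groups did not overlap for 1 member in DOX + K35 vs Saline, *Per3*, against 32.3% of genes, and for 0 members in DOX + K27 vs Saline, against 13.9%.

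The members did not move as a block. With K35 against DOX 5 of the 6 log2 fold changes were below 0 and 1, that of *Klf9*, above it, and the median of the 6 was -0.51 against 0.46 for all tested genes. With K27 against DOX 3 were above 0, with a median of 0.27 against 0.36. Against Saline, DOX had 4 above 0, with a median of 0.13 against -0.34. These comparisons share their DOX libraries, and how libraries were scaled moved the count of members called in 2 of them. With median-ratio scaling *Per2* (1.19), *Per3* (0.75) and *Klf9* (-1.40) passed in DOX vs Saline at adjusted p-values of 0.0431, 0.0455 and 0.0431. Of the 6 members, 5 then passed between DOX + K35 and DOX, all but *Ciart*. Calls among all genes rose as well, to 1059 of 3317 in DOX vs Saline (6 in the main fit). In DOX + K35 vs DOX they rose to 2589 (1883 in the main fit). The direction of *Per2*, *Per3* and *Klf9* in these 2 comparisons was the same under each scaling run.

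Ratios of members within a library do not depend on scaling by a common factor for all its genes, though quantile normalization can change them. They were chosen after the values were seen and are given without a test. The ratio of *Klf9* to *Per2* was 0.202, 0.0766 and 0.0948 in DOX, below its ranges of 0.271 to 2.17 in Saline, 0.378 to 1.52 in DOX + K35 and 0.314 to 1.63 in DOX + K27. The ratio of *Nr1d1* to *Per2* was 5.08, 12.8 and 4.28 in DOX + K27, above 0.908 to 2.24 in DOX and 0.580 to 3.63 in DOX + K35, and overlapped the 1.65 to 8.78 of Saline. *Ciart* to *Per2* ran from 0.486 to 0.721 in DOX, which overlapped the 0.549 to 1.24 of DOX + K35 and lay below the 0.900 to 1.37 of Saline and the 1.31 to 2.57 of DOX + K27. *Per3* to *Tef* ran from 0.302 to 0.333 in DOX, above the 0.204 to 0.275 of Saline, the 0.219 to 0.293 of DOX + K27 and the 0.178 to 0.214 of DOX + K35, of which the last overlapped Saline. Relative to *Klf9*, *Per2* was thus higher in the DOX libraries than in the other 9.

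Livers of the same group differed widely in several members. The SD within a group was 39.5% of the mean for *Per2* and 55.2% for *Klf9* in Saline, 57.4% for *Ciart* in DOX + K27 and 4.32% for *Tef* in Saline. Over the 12 libraries 15 pairs of members were compared, together with the 6 relations to the mitochondrial share. The permutations ignored the groups, so differences between groups enter these p-values. *Per3* and *Tef* had the closest relation, with r = 0.905 (permutation p = 8e-05, adjusted p = 0.000945) and rho = 0.888 (permutation p = 0.00022, adjusted p = 0.00231), and r was 0.889 without the 2 libraries farthest from the median of *Per3*. *Tef* and *Ciart* gave r = 0.833 (permutation p = 0.00063, adjusted p = 0.00441) and rho = 0.783 (permutation p = 0.00373, adjusted p = 0.0256), with r = 0.784 without 2 libraries. *Per2* and *Klf9* ran opposite, with r = -0.762 (permutation p = 0.00417, adjusted p = 0.0219) and rho = -0.769 (permutation p = 0.00488, adjusted p = 0.0256), and r stayed at -0.762 without 2 libraries.

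The remaining 12 pairs did not pass on r. *Per3* and *Ciart* had r = 0.654 (permutation p = 0.0183, adjusted p = 0.0769) and rho = 0.713 (permutation p = 0.0117, adjusted p = 0.0493). Taking deviations from the group means, as a description, r was 0.903 for *Per3* and *Tef*, 0.909 for *Tef* and *Ciart*, 0.861 for *Per3* and *Ciart* and -0.684 for *Per2* and *Klf9*. *Nr1d1* and *Klf9* had r = 0.246 over all libraries (permutation p = 0.438, adjusted p = 0.511), with rho = 0.273 (permutation p = 0.392, adjusted p = 0.484), but 0.870 in the deviations. In the 2 DOX + K27 livers with high *Ciart*, *Per2*, *Per3* and *Tef* were above replicate 2 as well, and replicate 2 had the lowest *Per2*, *Per3*, *Ciart* and *Tef* and the highest *Nr1d1* and *Klf9* of its group.

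**Figure D3:**
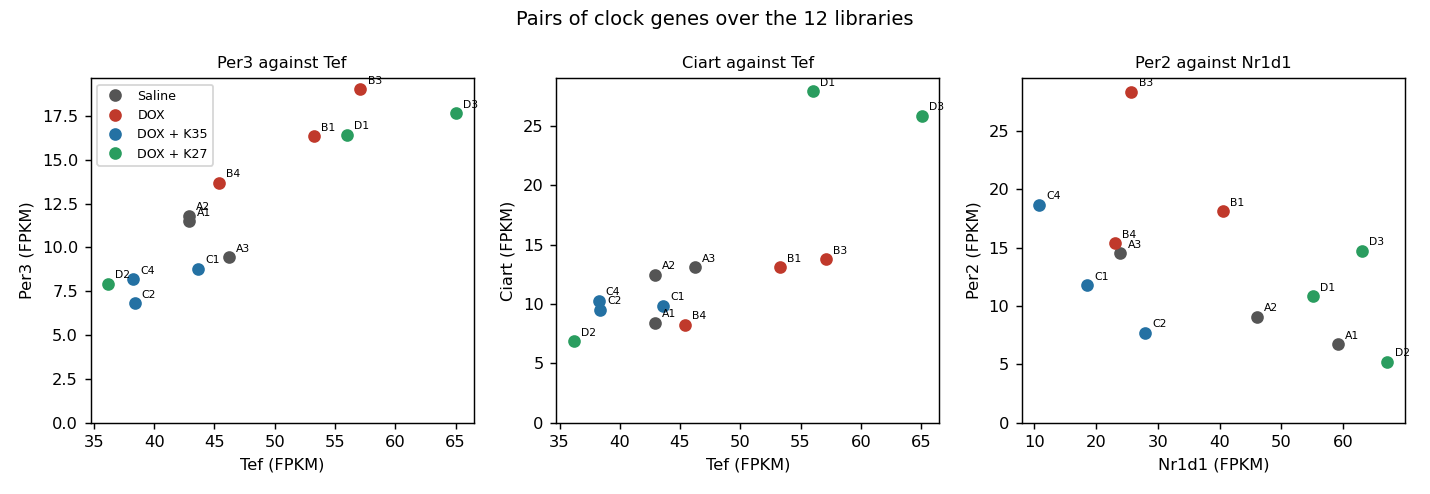
FPKM of *Per3* against *Tef*, *Ciart* against *Tef* and *Per2* against *Nr1d1*, with 1 point per library and colours for the 4 groups, the horizontal axes not starting at 0. The points of *Per3* and *Tef* lie along a rising line (r = 0.905 on the log2 scale), those of *Ciart* and *Tef* likewise with D1 and D3 far above the rest (r = 0.833), and *Per2* and *Nr1d1* scatter with r = -0.54 (permutation p = 0.0710, adjusted p = 0.135).

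The genes most like each member over the 12 libraries were ranked by Pearson r among 3128 genes with a symbol, as a description. *Per3* and *Tef* were each the other's closest gene, and *Tef* was the closest gene of *Ciart*. Next to *Per3* stood *Cpeb1* (0.904) and *Tlcd1* (0.903), and next to *Tef* stood *Nr1h5* (0.870) and *Poli* (0.865). For *Per2* the list was led by *2610021A01Rik* (0.895) and *L3mbtl3* (0.894), and for *Nr1d1* by *Pcmtd2* (0.950), *Slc25a42* (0.907) and *Trib3* (0.891). *Klf9* was followed most closely by *Foxo4* (0.983), *Gle1* (0.972) and *Tgoln1* (0.972).

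Other genes of the clock were taken from lists of activators, repressors, nuclear receptors, PAR bZIP factors with their antagonist, and kinases and ubiquitin ligases. Of 26 listed genes, members included, 11 were in the table and 9 were tested. *Arntl2* and *Bhlhe41* had a mean under 1 FPKM and were not tested, and the other 15 listed genes were not analysed here. Of the 9, 2 were higher in DOX + K35 than in DOX, *Cry1* and *Nfil3*, and 1 was lower, *Per3*, against 46.0% and 10.7% of all genes, with a median log2 fold change of -0.24, and the counts were again 2 and 1 without library C4. *Nr1d1* alone was called in DOX + K35 vs DOX + K27, and in the other 4 comparisons 0 of the 9 were.

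*Cry1*, which encodes the cryptochrome partner of the PER proteins, stood at 2.07, 1.76 and 2.20 FPKM in Saline, 1.35, 1.40 and 1.05 FPKM in DOX, 3.42, 3.30 and 9.32 FPKM in DOX + K35 and 2.21, 1.62 and 1.73 FPKM in DOX + K27. All 3 DOX + K35 libraries were above the other 9, with library C4 the highest, and the log2 fold change to DOX was 1.36 (adjusted p = 0.00497 by limma), or 0.95 without library C4 (adjusted p = 0.00563). *Nfil3*, which encodes the repressor E4BP4 that competes with TEF for D-boxes, stood at 6.96, 7.17 and 7.63 FPKM in Saline, 1.55, 2.67 and 2.94 FPKM in DOX, 5.10, 4.90 and 9.34 FPKM in DOX + K35 and 3.76, 6.11 and 3.93 FPKM in DOX + K27. The DOX libraries were the 3 lowest, as for *Klf9*, with a log2 fold change of -1.31 in DOX vs Saline (adjusted p = 0.0612) and 1.11 in DOX + K35 vs DOX (adjusted p = 0.00578). *Rora*, which encodes the activator that competes with REV-ERBα, had a log2 fold change of 0.83 in DOX + K35 vs DOX (adjusted p = 0.0593), and *Fbxl21*, a ligase for cryptochromes, one of -0.24 (adjusted p = 0.365).

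Clock-controlled output genes of the liver numbered 7 tested of 15 listed, and 2 of them were higher in DOX + K35 than in DOX, against 46.0% of all genes. *Por*, the electron donor of the microsomal cytochromes P450, went from 88.2 ± 25.6 FPKM (SD, n = 3) in DOX to 296 ± 62.6 in DOX + K35 (log2 fold change 1.76, adjusted p = 0.00496 by limma), and *Nampt*, an enzyme of NAD synthesis, from 12.8 ± 4.56 to 28.2 ± 5.54 (1.12, adjusted p = 0.00839). The other 5, *Noct*, *Cyp7a1*, *Gys2*, *Coq10b* and *Tsku*, did not pass in any comparison, though *Coq10b*, needed for coenzyme Q function, had an adjusted p of 0.0409 in DOX + K35 vs DOX without library C4. *Cyp7a1*, the rate-limiting enzyme of bile acid synthesis, stood at 29.4 ± 11.6 FPKM in Saline and 74.3 ± 11.4 in DOX, a log2 fold change of 1.38 (adjusted p = 0.0646).

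Since *Klf9* is also a glucocorticoid target, 21 targets of the glucocorticoid receptor were listed, of which 9 were in the table and tested. Compared with DOX, 5 of the 9 were higher in DOX + K35, *Klf9*, *Fkbp5*, *Tat*, *Ddit4* and *Angptl4*, and 0 were lower, with a median log2 fold change of 1.07 against 0.46 for all genes and a share of all genes called higher of 46.0%. *Fkbp5*, a co-chaperone of the receptor, stood at 4.68, 2.29 and 2.42 FPKM in DOX and at 11.6, 13.2 and 52.3 FPKM in DOX + K35, a log2 fold change of 2.41 (adjusted p = 0.00496 by limma), and library C4, the highest, also held the highest *Dusp1* (33.2 FPKM), *Gadd45b* (20.4) and *Ddit4* (22.8) of the series. Without library C4 the log2 fold change of *Fkbp5* was 1.74 (adjusted p = 0.00563), and 5 of the 8 targets then tested were higher, against 46.6% of all genes. The rest were below 0 in that fit without passing. They were *Per2* (-0.99, adjusted p = 0.0504), *Dusp1* (-0.70, adjusted p = 0.0536) and *Gadd45b* (-0.33, adjusted p = 0.480). *Tat*, a tyrosine-degrading liver enzyme that is also on the hepatocyte list, had a log2 fold change of 0.95 (adjusted p = 0.0193), *Ddit4*, an inhibitor of mTORC1, of 1.45 (adjusted p = 0.0130), or 0.73 without library C4 (adjusted p = 0.0242), and *Angptl4*, an inhibitor of lipoprotein lipase, of 1.07 (adjusted p = 0.0117). In DOX + K27 vs DOX 1 of the 9 was higher, *Angptl4* (1.97, adjusted p = 0.0368), against 0.0603% of all genes. The median of the 9 in this comparison was 0.44 against 0.36 for all genes. *Per2* (-0.99), *Sult1e1* (-0.70) and *Dusp1* (-0.30) were below 0 and the rest above it. In each of the other 4 comparisons 0 of the 9 passed. Without library C4 *Fkbp5* passed in DOX + K27 vs DOX as well, where 0.181% of all genes were then called higher. Library C4 is in neither of these groups, so leaving it out changed the shared spread and not the log2 fold change of 1.74. *H6pd*, which supplies the cofactor for glucocorticoid activation in the endoplasmic reticulum, was the 1 gene tested of 3 listed for the receptor and its activating enzyme, and was higher in DOX + K35 than in DOX by 1.19 (adjusted p = 0.00578).

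Of 17 Krüppel-like factors listed, 3 were in the table and 2, *Klf9* and *Klf11*, were tested. *Klf11* had the same order of DOX below Saline, with means of 0.986 ± 0.225 FPKM and 2.73 ± 1.68 FPKM (SD, n = 3) and a log2 fold change of -0.82 (adjusted p = 0.0612 by limma). Against DOX it did not pass with K35 (0.48, adjusted p = 0.164) or with K27 (0.83, adjusted p = 0.155).

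**Figure D4:**
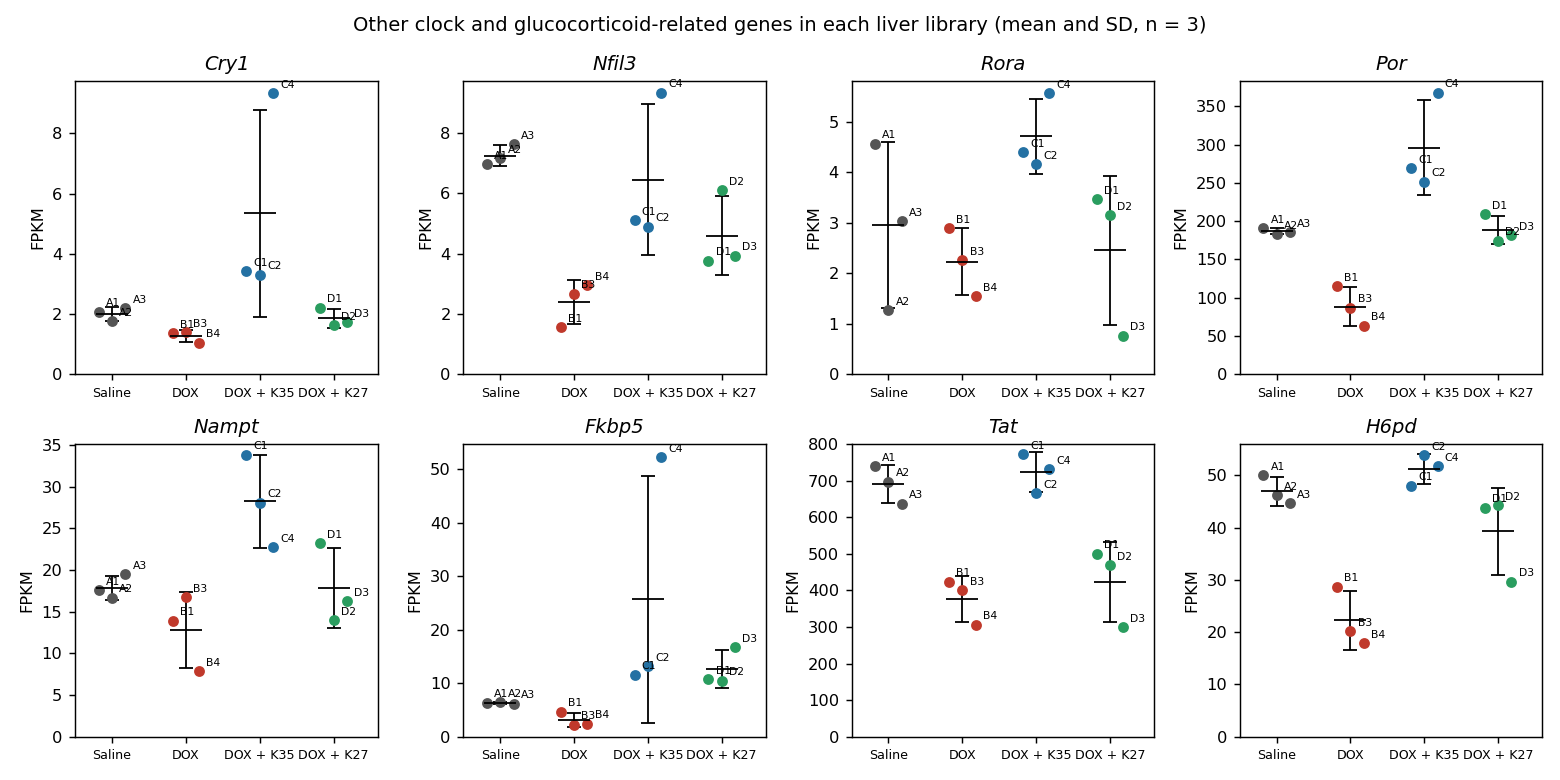
FPKM (vertical axes, from 0) of *Cry1*, *Nfil3*, *Rora*, *Por*, *Nampt*, *Fkbp5*, *Tat* and *H6pd* in each of the 12 libraries, by group, where each point is a library, the long bar the group mean and the whiskers 1 SD (n = 3). The DOX libraries are the 3 lowest for *Cry1* (1.04 to 1.40 FPKM), *Nfil3* (1.55 to 2.94), *Por* (63.3 to 114), *Fkbp5* (2.29 to 4.68) and *H6pd* (17.9 to 28.7). Library C4 is the highest for *Cry1*, *Nfil3*, *Rora*, *Por* and *Fkbp5*.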

How the data were processed

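Poly-T selected RNA of 12 mouse livers, 3 per group, was read on an Illumina NovaSeq. A table was deposited by the authors, of length-scaled values treated as FPKM since no unit is named. It holds genes selected by the authors, so the tests are not independent of that selection. Per the labels, HISAT2, DESeq2, edgeR and GRCm38 were used in processing; their roles, the counter and the annotation are not given in the sources used here. No counts are held and low values did not share a common step, so the depth is unknown.

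Libraries B3, B4 and C4 were matched to their group only, because the labels list B2 and B3 for DOX and C3 for DOX + K35 in their place. Nothing in the labels says more of how replicates were taken, so p-values measure the spread between these libraries. Genes whose mean reached 1 FPKM were fitted as log2(FPKM + 1) with limma 3.58.1 in R 4.3.3 (lmFit, eBayes with trend) over all 12 libraries. This scale understates changes of low genes. Adjusted p-values are Benjamini-Hochberg values over the 3317 genes of each of 6 comparisons, two-sided, with a threshold of 0.05. The fit was tested on simulated data. Correlations used 100000 permutations over all 12 libraries without regard to group (Python 3.11.15, numpy 2.4.6, scipy 1.17.1), two-sided. Gene positions came from GENCODE M21, in which all 3519 Ensembl identifiers of the table were found, and promoters from RefSeq.

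The members and lists were chosen with earlier results of these data known. Named are the members in full, list genes past the threshold in any comparison and all genes of the first 4 clock lists, and the genes most alike single members (the ranking by the mean over members is not reported here); *Sult1e1*, *Dusp1*, *Gadd45b*, *Klf11*, *Fbxl21* and the output genes that did not pass were added after their values were seen. Alternatives were a pseudocount of 0.1, no filter, 3 other scalings (median-ratio, quantile, 20 highest genes left out), fits of the 2 groups alone, stricter thresholds, each library left out, and a replicate block. Leaving out the mitochondrially encoded genes, and library C4 for the lists, was added after seeing the data. Livers with the same number came from different mice, and deviations from the group means correlated between same-numbered libraries at 0.109 to 0.474 across genes. Between Saline and DOX + K27, the comparison with 3 shared numbers, they were 0.258, 0.176 and 0.474. The main fits used no pairing, and the replicate block was run only as an alternative.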

Additional observations from a re-analysis of the deposited data

How the results depend on the processing

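Of 720 log2 fold changes of members under an alternative, 660 kept their direction and their side of the threshold, 10 lost and 26 gained a call, and 24 changed sign. In DOX vs Saline the members past the threshold numbered 3 with median-ratio scaling, 3 after quantile normalization and 4 once the 20 highest genes were removed, against 0 as reported, and 0 to 2 without 1 library. Calls among all genes there numbered 1059, 649 and 1067 under these scalings, against 6 as reported. In DOX + K35 vs DOX the members past the threshold numbered 5, 5 and 5 under the same scalings, 4 without the mitochondrially encoded genes, 1 at an adjusted p under 0.01, 1 with a log2 fold change of at least 1 in size and 1 to 2 without 1 library, against 2. Calls among all genes there numbered 2589, 2320 and 2330 under the scalings, against 1883. In DOX + K35 vs DOX + K27 the members past the threshold numbered 0 in the fit of these 2 groups alone (*Nr1d1*, adjusted p = 0.0584), 0 at an adjusted p under 0.01 and 0 to 1 without 1 library, against 1. In DOX + K27 vs DOX the range without 1 library was 0 to 2. The median of all genes in DOX + K35 vs DOX was 0.21, 0.12 and -0.08 under the 3 scalings, and the *Klf9* call held under all of them.

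Values that changed sign were all of differences that had not passed. *Nr1d1* in DOX vs Saline was 0.15 (quantile) and 0.10 (20 highest out). In DOX + K35 vs Saline *Klf9* was -0.024 (median-ratio), -0.042 (quantile) and -0.045 (20 highest out), and *Per2* was -0.016 over the 9 numbered libraries. *Per2* in DOX + K27 vs Saline was 0.074 (20 highest out) and 0.043 (mitochondrial genes out). Without 1 library, *Ciart* in DOX vs Saline ran from -0.15 to 0.25, *Per3* in DOX + K27 vs DOX from -0.46 to 0.067, *Tef* there from -0.19 to 0.22, *Per2* in DOX + K35 vs DOX + K27 from -0.074 to 0.59, and against Saline *Per2* from -0.02 to 0.57 in DOX + K35 and -0.31 to 0.36 in DOX + K27, and *Klf9* from -0.41 to 0.42 in DOX + K35. The cause was not tested.

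The replicate block could be fitted over the 9 numbered libraries for 3 comparisons. With this pairing 1 member was called in DOX + K35 vs DOX + K27, *Nr1d1* at -1.57 (adjusted p = 0.0205), and 0 in the others, as without it, while the calls among all genes in that comparison numbered 1443 with and 666 without the block. In DOX + K35 vs Saline the block turned *Klf9* to -0.090, *Tef* to 0.0023 and *Ciart* to 0.0093. Comparisons with DOX could not be paired, because DOX shares 1 number with each other group.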
